A study of Mus musculus with 2 samples.

Results

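Mir139 and Mir149 are microRNA genes that lie inside introns of protein-coding genes, Mir139 in Pde2a and Mir149 in Gpc1. They were chosen by name, with their high level in these data known, and are 2 of the 2202 microRNA genes counted. The samples were gastrocnemius, a calf muscle, from male mice aged 18 to 20 months (adult) of the hybrid B6CASTF1/J, bred from C57BL/6J and CAST/EiJ. MicroRNA-seq gave 1 group of 2 libraries, biological replicates 1 and 2, with inserts under 30 nt. No treatment or other genotype was named. The labels list separate biosamples under a shared donor record, so it is not stated whether the libraries came from separate animals. A p-value here weighs a difference between these 2 libraries against counting error alone. It measures no spread between samples or animals, and the difference may be of technical origin.

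A microRNA is cut from a hairpin in a longer transcript, and either arm of the hairpin can be loaded into an Argonaute protein, where bases 2 to 8, the seed, pair with target messenger RNAs and lower their output. An intronic microRNA is usually transcribed with its host gene, though some have starts of their own. Pde2a codes for a phosphodiesterase that breaks down cyclic AMP and cyclic GMP and is stimulated by cyclic GMP. Gpc1 codes for glypican 1, a heparan sulfate proteoglycan anchored to the cell surface that binds growth factors. The 5′ arm of Mir139 is best known from tumours, where its loss along with its host has been described, and that of Mir149 has been studied in skeletal muscle as a regulator of Parp2, an enzyme that consumes NAD. Host messenger RNA was not measured here.

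The hairpins and arms are shown because the seeds separate the genes from each other and from nearly all other mouse microRNAs. Sequences are those of RefSeq on GRCm38.p6, which held both genes. In the hairpins, capitals mark the annotated mature arms.
Mir139 hairpin: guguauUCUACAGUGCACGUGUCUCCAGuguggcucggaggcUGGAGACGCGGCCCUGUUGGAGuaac
Mir149 hairpin: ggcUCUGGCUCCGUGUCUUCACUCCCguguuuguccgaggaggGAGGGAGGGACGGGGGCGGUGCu
In the mature arms, capitals mark the seed.
mmu-miR-139-5p: uCUACAGUgcacgugucuccag
mmu-miR-139-3p: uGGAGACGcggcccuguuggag
mmu-miR-149-5p: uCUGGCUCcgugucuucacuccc
mmu-miR-149-3p: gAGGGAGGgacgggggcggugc

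None of the 4 seeds is shared between Mir139 and Mir149. Among 1738 mature mouse sequences, no other microRNA has the seed of either Mir139 arm or of mmu-miR-149-5p. The purine-rich seed of mmu-miR-149-3p is also held by 3 other mature microRNAs, shown here because they are the only seed relatives of either gene.
mmu-miR-1943-5p: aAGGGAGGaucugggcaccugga
mmu-miR-7016-5p: cAGGGAGGggagcgagaguag
mmu-miR-6967-5p: cAGGGAGGgauaaagaccagu

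Of the seed relatives, the ones that could be counted had few counts. Mir1943, in an intron of Tmem184b, had 23 counts in replicate 1 and 14 in replicate 2, or 5.18 and 6.49 CPM (counts per gene scaled to a common total of assigned counts). Mir7016 had 1 count in replicate 1 and 0 in replicate 2, where a count of 0 allowed up to 1.39 CPM, for counting error only. The gene models Gm27740 and Gm27775 both hold miR-6967-5p, and a read of that arm maps to both. Such reads were left unassigned, so the 0 counts listed for these models in both libraries say nothing of the level of miR-6967-5p. The tables count reads per gene, so the share of each arm cannot be read from them.

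Both genes lay deep inside long introns that come early in the order of their hosts' introns. Mir139 lay 53685 bases from the start of Pde2a, which spans 91137 bases, and Mir149 lay 18733 bases from the start of Gpc1, which spans 29135 bases. On mm10, Mir139 (ENSMUSG00000065446.1) spans chr7:101475376-101475443 on the plus strand, 68 bases. It lay in an intron of 10 of 12 annotated Pde2a transcripts. In the transcript Pde2a-202 this is intron 2 of 31, of 29902 bases, with Mir139 at 23907 bases from the exon before it and 5927 bases from the exon after it. The gene model Gm45837 overlaps Pde2a on the same strand and also carries Mir139 in an intron. Mir149 (ENSMUSG00000065470.1) spans chr1:92850378-92850443 on the plus strand, 66 bases. It lay in intron 1 of 8 of Gpc1-201, of 21249 bases, at 18280 bases from the first exon and 2903 bases from the second. Gpc1-201 was the one of 5 Gpc1 transcripts with Mir149 in an intron.

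**Figure D1:**
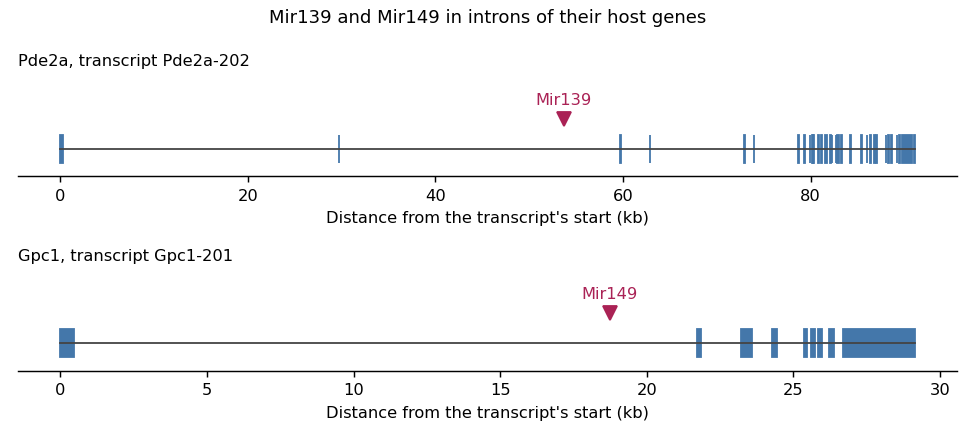
Exons (blue bars) of Pde2a-202 and Gpc1-201 by distance from the transcript's start in kilobases, with a triangle at each microRNA gene. Mir139 sits in intron 2 of Pde2a-202 and Mir149 in intron 1 of Gpc1-201, each nearer to the exon after it than to the exon before it.

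Neither gene belongs to a microRNA cluster. The nearest other microRNA gene of the tables was 405741 bases from Mir139 (the model Gm22655) and 385836 bases from Mir149 (Mir6900). No annotated gene lay on the opposite strand of either, and their counts without strand equalled those on the gene's strand, with 0 counts on the opposite strand in both libraries. Neither hairpin shared 20 bases with a microRNA gene elsewhere. Among 141767 annotated transcripts, each whole arm, and its first 18 bases, occurred in its own gene alone. That bears on the counts because reads that map to several places were left unassigned, and they made up 73.8% of the reads of replicate 1 and 70.2% of those of replicate 2. Introns and intergenic sequence were not part of this search.

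The hairpins shared a high GC content and a stable fold. GC made up 58.8% of the Mir139 hairpin and 68.2% of that of Mir149, against a median of 51.4% over the 324 microRNA genes with 2 CPM or more in both libraries. Of those genes, 77.5% had a lower GC content than Mir139 and 95.7% a lower one than Mir149. RNAfold gave minimum free energies of −35.6 and −36.7 kcal/mol, with 50 bases paired in each. Per base these were −0.52 for Mir139 and −0.56 for Mir149, against a median of −0.43, and 80.9% and 88.6% of the detected hairpins were less stable per base. The arm mmu-miR-149-3p, with 81.8% GC, was the richest of the 4, and mmu-miR-139-5p, with 54.5%, the poorest. These are descriptions of 2 chosen genes, without a test.

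Replicate 1 held 4442692 counts assigned to microRNA genes, 15.7% of its reads, and replicate 2 held 2156222, or 19.8%. All 9 skeletal muscle markers had counts in both libraries. So did every endothelial, smooth muscle, erythroid, leukocyte and liver marker, so having counts does not check the tissue label. Led by Mir206 and Mir486, the skeletal muscle markers took 1.64% of assigned counts in replicate 1 and 6.57% in replicate 2. Mir1a-1, Mir1a-2, Mir133a-1, Mir133a-2 and Mir133b each share 20 bases with another locus, so their reads can map to several places and be left unassigned, and neither this share nor its leading genes show the full level of the list. In bulk tissue, fewer cells of a type and less RNA per cell cannot be told apart.

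Mir139 had 50692 counts in replicate 1 and 44796 in replicate 2, although replicate 2 was the shallower library. This was 11410 CPM and 20775 CPM, with a mean of 16093 ± 6622 CPM (SD, n = 2). As a share of assigned counts, replicate 1 gave 1.14% and replicate 2 gave 2.08%, with Wilson 95% intervals of 1.13 to 1.15 and 2.06 to 2.10. Mir139 was thus high in both libraries, and higher in replicate 2.

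Mir149 had 60873 counts in replicate 1 and 23138 in replicate 2. This was 13702 CPM and 10731 CPM, with a mean of 12216 ± 2101 CPM (SD, n = 2). The shares were 1.37% (1.36 to 1.38) and 1.07% (1.06 to 1.09). Mir149 was the higher of the pair in replicate 1 and the lower in replicate 2. Together the genes took 2.51% of assigned counts in replicate 1 and 3.15% in replicate 2.

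By mean CPM of assigned counts Mir139 ranked 17 and Mir149 ranked 19 of all microRNA genes. The ranks hold for assigned counts only, since 1087 of the 2202 hairpins share 20 bases with another locus and reads that map to several places were not counted. In the single libraries Mir139 ranked 21 and 15, and Mir149 ranked 18 and 20, so the order of the pair rests on replicate 2. Mir100, just above Mir139 in the order, held 16909 ± 207 CPM (SD, n = 2), and Mir29a, between the pair, held 14538 ± 3485 CPM. Both values of Mir100 and both of Mir29a, 17003 and 12074 CPM, fell between the 2 values of Mir139. Mir21a, just below Mir149, held 15456 and 7683 CPM, to either side of both values of Mir149. None of these neighbours in the order was separated by more than the spread between the libraries.

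**Figure D2:**
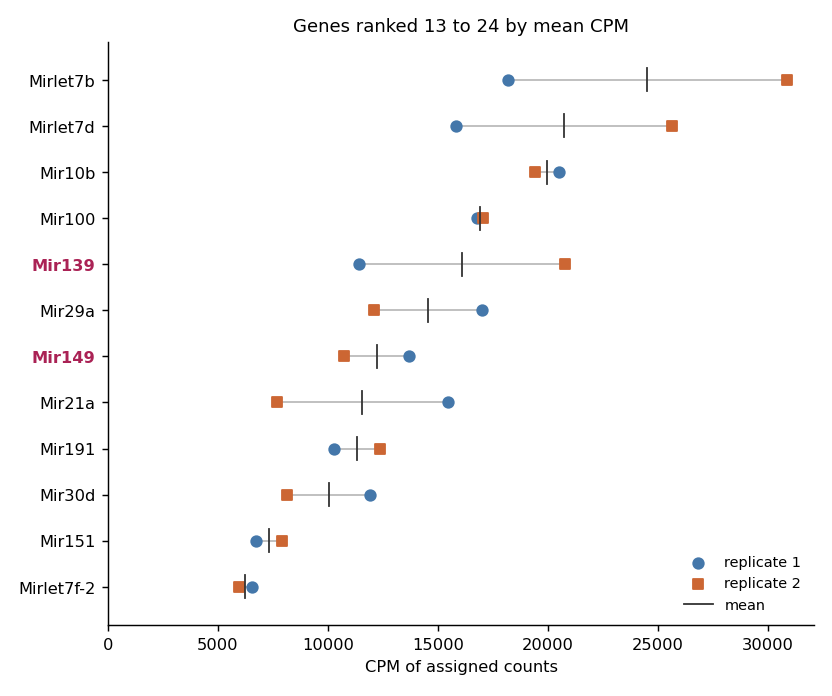
CPM of assigned counts in replicate 1 (circles) and replicate 2 (squares) for the genes ranked 13 to 24 by mean CPM (bars). The ranges of Mir139, Mir29a, Mir149, Mir21a and Mir191 each overlap those of the genes ranked just above and just below. The range of Mir100 overlaps that of Mir139 below it but not that of Mir10b above it. Mir139 and Mir149 differ in which library is higher.

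Against each other, the genes changed order between the libraries. In replicate 1 Mir149 had 1.20 times the counts of Mir139, a log2 ratio of 0.26 (exact 95% counting interval 0.25 to 0.28). In replicate 2 Mir139 had 1.94 times the counts of Mir149, a log2 ratio of Mir149 over Mir139 of −0.95 (−0.98 to −0.93). The counting intervals did not overlap, and the ratios differed by 1.22 on the log2 scale. This ratio is taken within a library, so no scaling between libraries enters it. Per base of the annotated hairpin, which differs little between them, Mir139 and Mir149 had 168 and 208 CPM in replicate 1, and 306 and 163 CPM in replicate 2. The per-base log2 ratios of Mir149 over Mir139 were 0.31 and −0.91.

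Replicate 2 against replicate 1 asks how far each gene's level differed between libraries of the same label. With TMM scaling and 1 CPM added, Mir139 had a log2 ratio of 0.96 (95% counting interval 0.94 to 0.98), or 1.94-fold higher in replicate 2. In an exact binomial test of the counts (two-sided, Benjamini-Hochberg adjusted over all genes tested) its adjusted p was too small for double precision and stands as 0. Mir149 had a log2 ratio of −0.26 (−0.28 to −0.24), or 1.20-fold higher in replicate 1 (adjusted p = 5.0e-122, exact binomial test). Scaled by all reads of the tables in place of assigned counts, Mir149 was nearly level, at 2144 and 2128 CPM of all reads, while Mir139 stood at 1786 and 4120. The difference of Mir149 therefore depended on the total it was divided by, and on that total its log2 ratio was −0.011 with an adjusted p of 0.40 in the same exact binomial test.

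The binomial test counts only sampling error and passes easily at this depth. Of 380 microRNA genes tested, 61.8% passed an adjusted p of 0.05, with 115 (30.3%) higher in replicate 2 and 120 (31.6%) higher in replicate 1. Over all reads the split was 144 to 88, as that total moved the median ratio by 0.25 on the log2 scale. Among the 52 genes with a mean CPM of 1000 or more, 98.1% passed, 31 higher in replicate 2 and 20 in replicate 1. That both members passed is therefore what nearly all genes of their level did. Sizes tell more. The log2 ratios of the 52 genes had an SD of 0.99, and 11 of the 52 had a larger ratio in either direction than Mir139, while 41 had a larger one than Mir149. Mir139 stood near 1 SD from 0 and Mir149 well within it. The median ratio of the 52 genes was 0.24, and both members lay within 1 SD of that median. Only Mir206 and 4 others of the 52 exceeded Mir139 among ratios above 0, and 17 lay below Mir149.

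**Figure D3:**
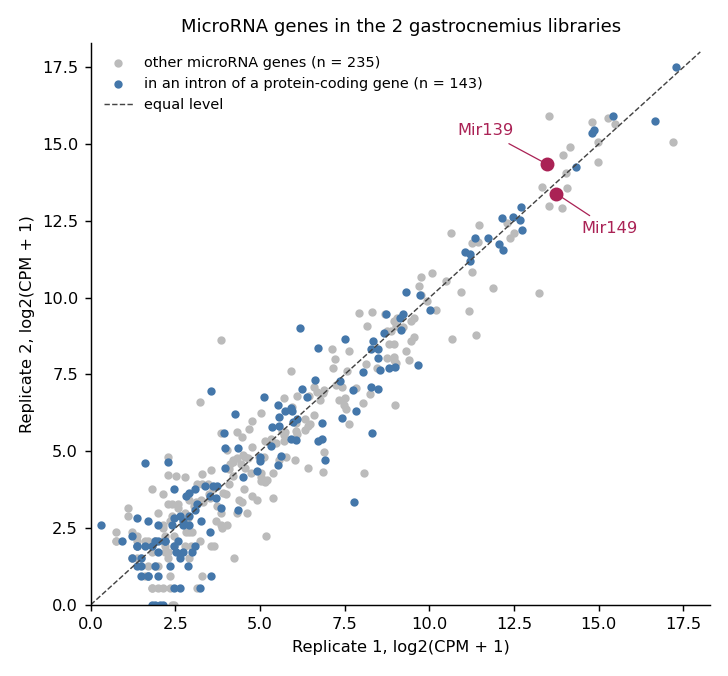
Level of the 380 tested microRNA genes in replicate 1 (x axis) and replicate 2 (y axis), as log2(CPM + 1), with genes of the intronic list in blue and the line of equal level dashed. Mir139 lies above the line and Mir149 just below it, both near the top of the range.

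Marker lists also differed between the libraries. Of the 9 skeletal muscle markers, 3 passed as higher in replicate 2 and 4 as higher in replicate 1, and the rise of their summed share was that of Mir206. From replicate 1 to replicate 2 the summed share was 10.4% and 5.54% for the endothelial marker Mir126a, and 4.88% and 5.68% for the smooth muscle markers Mir143 and Mir145a. The leukocyte markers took 0.229% and 0.363%, with counts for all 4 in both libraries. Of these, Mir150 and Mir155 passed as higher in replicate 2 (log2 ratios of 0.80 and 1.02), and Mir223 and Mir142 as higher in replicate 1 (−0.23 and −0.69). The erythroid markers Mir451a and Mir144 took 0.0777% and 0.0109%. The liver marker Mir122 took 0.00133% and 0.0396%. The epithelial markers took 0.0205% and 0.0225%, with 7 of 7 counted in at least 1 library and Mir200a at 0 in replicate 2. Mir203 passed as higher in replicate 2 (log2 ratio of 0.66), while Mir205 (−2.85), Mir200b (−2.55) and Mir429 (−1.86) passed as higher in replicate 1. The neural markers took 0.00212% and 0.00682%, with Mir137 (log2 ratio of 1.85) and Mir219a-2 (2.03) passing as higher in replicate 2 and Mir219a-1 (−1.73) as higher in replicate 1. Mir219a-2, with 17 and 38 counts, and Mir219a-1, with 18 and 1, each share 20 bases with another locus. Some of their reads can be left unassigned. A further 5 of 9 (Mir124a-1, Mir124a-2, Mir124a-3, Mir9-1 and Mir9-2) are listed at 0 in both libraries, but each shares 20 bases with another locus, so the 0 does not show that they are absent. The smooth muscle and liver lists, of 2 and 1 markers, moved in the direction of Mir139. The endothelial and erythroid lists, of 1 and 2 markers, moved in that of Mir149. Lists this short do not show a direction for a cell type, as 30.3% of all genes tested passed upwards and 31.6% downwards. The muscle, leukocyte, neural and epithelial lists each held markers that passed in either direction, the neural list downwards through Mir219a-1 alone. The part of any marker in the difference of either gene was not tested.

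The genes most like each member over the 2 libraries were taken as the 5 nearest by distance in log2(CPM + 1). For Mir139 these were Mirlet7d (distance 0.56), Mir100 (0.62), Mir191 (0.76), Mir10b (0.85) and Mirlet7b (0.88). Mirlet7d, at 15829 and 25628 CPM, and Mirlet7b, at 18174 and 30875 CPM, resembled Mir139 in being higher in replicate 2, with log2 ratios of 0.79 and 0.86. For Mir149 the nearest were Mir29a (0.35), Mir30d (0.44), Mir191 (0.46), Mir21a (0.51) and Mir100 (0.73). Mir29a, Mir30d and Mir21a were higher in replicate 1 as Mir149 was, with log2 ratios of −0.40, −0.45 and −0.92, each larger in size than that of Mir149. Mir191 at 10288 and 12377 CPM and Mir100 were near to both members. With 2 libraries such likeness describes the level and a single difference.

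Set among intronic microRNA genes, the pair held a middle place at the top. An intron of a protein-coding gene on the same strand held 741 of the 2202 microRNA genes, and 119 of these had 2 CPM or more in both libraries. This list took 47.7% of assigned counts in replicate 1 and 50.6% in replicate 2, of which Mir139 and Mir149 together made up 5.26% and 6.22%. By mean CPM Mir139 was 7th and Mir149 8th in the list. Above them stood Mir378a (in Ppargc1b, at 172860 ± 18207 CPM), Mir126a, Mirlet7g (Wdr82), Mir23b, Mir26b (Ctdsp1) and Mir10b (Hoxd3 and Hoxd4). Below them came Mir151, in Ptk2, the gene of focal adhesion kinase, at 7314 ± 831 CPM (SD, n = 2), and Mirlet7f-2, in Huwe1, at 6240 ± 426 CPM. Mir378a, Mir23b and Mirlet7f-2 each share 20 bases with another locus, so some of their reads can be left unassigned. The order holds for assigned counts only, and does not show that Mirlet7f-2 is lower than the pair. Mir126a is in the list through an intron of the gene model Gm20532, but it also overlaps an exon of another gene, as 31 of the 741 did. Without those 31 the pair ranked 6 and 7.

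**Figure D4:**
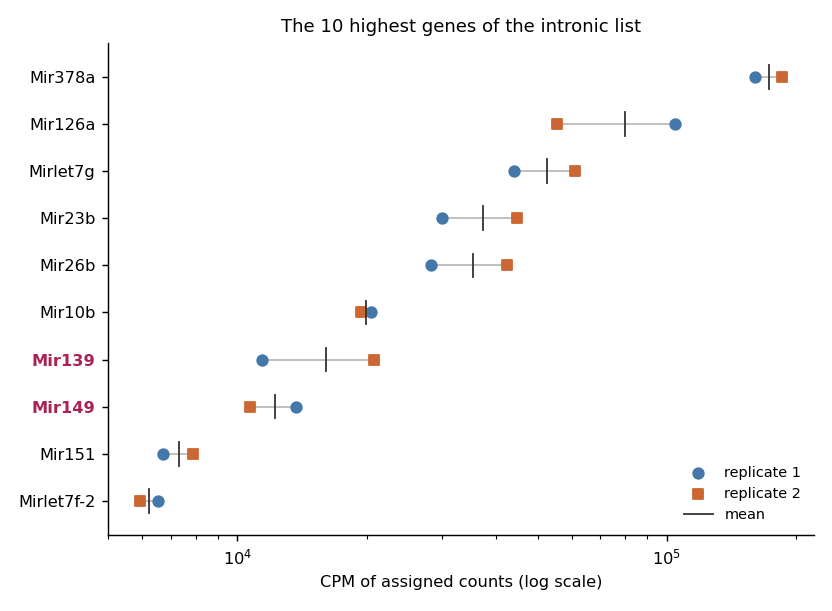
CPM of assigned counts, on a log scale, in replicate 1 (circles) and replicate 2 (squares), with the mean (bars), for the 10 highest genes of the intronic list. Mir139 and Mir149 rank 7 and 8 by mean, and the widest gaps between the libraries are those of Mir126a and Mir139.

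Intronic genes as a class were divided between the libraries. Of 145 tested, replicate 2 had the higher level for 45 and replicate 1 for 41, while 59 fell short of the threshold, so that 59.3% passed it against 61.8% of all genes. Their median log2 ratio was 0.06, against 0.02 over all genes tested. Of the 81 intronic genes with 100 or more counts, 10 had a higher log2 ratio than Mir139 and 27 a lower one than Mir149. Among the 10 highest, Mir139 had the largest log2 ratio upwards, followed by Mir26b and Mir23b at 0.68 each and Mirlet7g at 0.57. Mir126a, at −0.82, had the largest downwards.

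Other genes of the phosphodiesterase and glypican families, and genes named after them, carry microRNA genes too. Of 11 microRNA genes that overlap a gene named Pde or Gpc on either strand, 3 had any count, and over all genes 643 of 2202 did. Mir139 and Mir149 are among the 3 and were chosen with their high level known. The 2 shares are therefore not compared. Besides Mir139 and Mir149 the gene with counts was Mir582, in an intron of Pde4d, with 3 counts in replicate 1 and 1 in replicate 2. The other 8, among them Mir1904 in Pde4d and Mir717 and Mir6384 in Gpc3, had 0 counts in both libraries. One of the 8, Gm44337 in Pde11a, shares 20 bases with another locus, so its 0 sets no limit on its level.

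**Figure D5:**
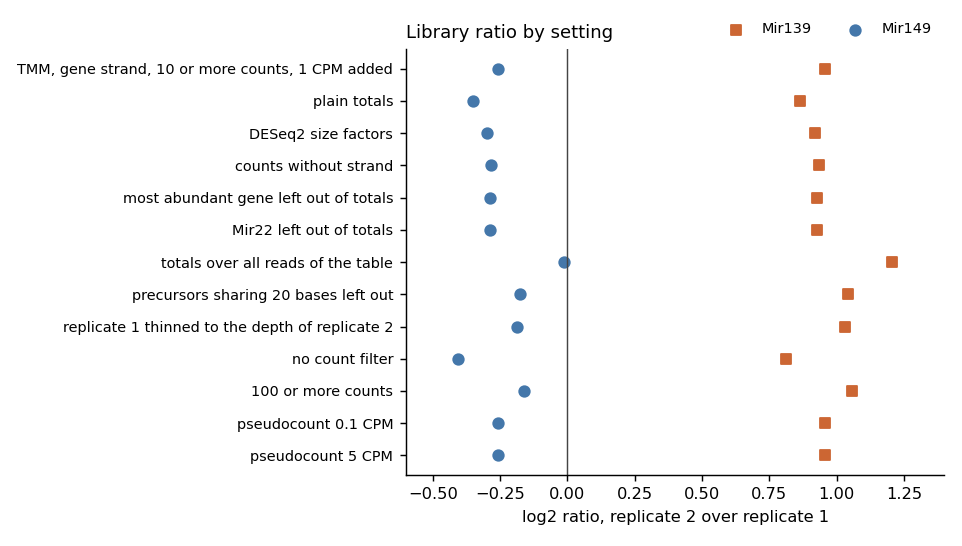
Log2 ratio of replicate 2 over replicate 1 for Mir139 (squares) and Mir149 (circles) under the main setting (top) and 12 others. Mir139 stays between 0.81 and 1.21, and Mir149 lies below 0, nearest to it at −0.011 with totals over all reads.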

How the data were processed

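Per the readmes beside the files, the authors deposited microRNA quantifications on the mm10 assembly with GENCODE M21. The deposited values are raw read counts per microRNA gene, 1 table per library. The aligner, trimming and counter: not given in the sources used here. From their values, the 3 columns hold unstranded counts, then counts on the strand of the gene (used here), then those on the other strand. Rows of unassigned reads stayed out of totals and tests. All 2202 identifiers matched M21, and hairpin positions of both members were the same in RefSeq.

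CPM were computed over assigned counts. Log2 ratios used 1 CPM added and TMM factors from genes with 10 or more summed counts, which also entered an exact binomial test (two-sided, Benjamini-Hochberg adjusted). Intervals are Wilson for shares and Clopper-Pearson for ratios, and cover counting error only, as reads were PCR-amplified. The single group allowed no contrast of conditions. The members and lists were chosen with earlier results of these data known. Named genes were the members, their 5 nearest genes, rank neighbours, seed sharers, genes in Pde or Gpc genes, the 10 highest intronic genes and the top markers. Data were also simulated with counting error only (389 genes tested), and the test was given the library sizes used to simulate them. It called 65.1% of genes changed 2-fold, 90.7% of those changed 4-fold and 0.368% of unchanged ones. These rates leave out any error of the TMM scaling. Tools were R 4.3.3, edgeR 4.0.16, DESeq2 1.42.0, Python 3.11.15, scipy 1.17.1, numpy 2.4.6, matplotlib 3.10.9 and RNAfold 2.7.2. The alternatives were other scalings, totals, filters and pseudocounts, counts without strand, hairpin copies left out, thinning and each library alone.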

Additional observations from a re-analysis of the deposited data

How the results depend on the processing

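Mir139 was higher in replicate 2 and passed under all 12 alternatives, with log2 ratios of 0.81 to 1.21. The pseudocounts of 0.1 and 5 CPM among them do not enter the test. For either gene, passing under those pseudocounts was therefore fixed by the main setting. Mir149 was below 0 under all 12, from −0.41 to −0.011, and passed under 11. With totals over all reads it did not pass, at −0.011 (adjusted p = 0.40, exact binomial test). The count of genes differing, 235 of 380 tested, ranged from 180 of 296 with precursors sharing 20 bases left out to 237 of 380 with DESeq2 size factors. It was 225 of 643 without a count filter and 188 of 228 with 100 or more counts. The share that passed thus depended on the filter. The mean CPM depends on the total it is divided by: for Mir139 it was 2953 over all reads and 22736 with precursors sharing 20 bases left out, and for Mir149 it was 2136 and 16967. For Mir149 it was 16987 with counts without strand and 14745 with the most abundant gene left out of totals. A single library gave 11410 to 20775 CPM for Mir139 and 10731 to 13702 CPM for Mir149. The mean log2 ratio of Mir149 over Mir139, −0.34, was −0.95 to 0.26 in single libraries, so its sign rests on replicate 2. No paired analysis was possible because there was 1 group.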

Other observations

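The pair was also read against 47 microRNA genes with well-known host genes, named from general knowledge, of which 39 lay in an intron of the named host by the M21 annotation. Of the 8 others, Mir103-1 and Mir103-2 had their hosts swapped in the list, and by annotation lie in introns of Pank3 and Pank2. Of the 37 besides Mir139 and Mir149, 20 passed as higher in replicate 2 and 12 as higher in replicate 1, 3 did not pass and 2 had too few counts to be tested. Over all 380 genes tested 61.8% passed, with 115 higher in replicate 2 and 120 in replicate 1. Among all genes with 100 or more counts 81.1% passed. The set was picked by name, so its counts are not read as a trait of host pairs. In this set 3 genes, Mir378a, Mirlet7g and Mir26b, had a higher mean CPM than Mir149.

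By hairpin GC content, in which the pair is high, the median log2 ratio was −0.0034 for 60 genes under 45% GC, −0.06 for 99 genes from 45 to 55% and −0.0013 for 69 genes at 55% or more, among genes with 100 or more counts.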
